A study of Homo sapiens with 6 samples.

Results

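Solute carriers are membrane proteins that move small molecules and ions across the plasma membrane and the membranes of organelles, driven by ion gradients or by the gradient of the substrate itself. The genes described here are the solute carriers other than the SLC25 family of mitochondrial carriers. They were chosen as the gene symbols that start with SLC, a family number other than 25, the letter A and a number, with a mean of at least 20 counts over all 6 libraries. SLC7A11, SLC3A2, SLC7A5, SLC11A2, SLC40A1, SLC2A1, SLC2A3, SLC16A1 and SLC16A3 were set aside by name. Of the remaining 216 matching symbols among the 15598 genes of the deposited count table, 128 passed the limit and 88 did not. The choice used the symbol and the mean count over both groups. SLC2A12 and SLC7A8 had means under 20 counts in shcontrol and passed only through their shHNRNPC counts. The list was drawn up with earlier results of these data known. All 128 also passed the filter on low counts of the test that follows. Of the 128, 122 are counted here as carriers. The other 6 carry the name of a carrier they bind, regulate or lie beside, and they are described apart (SLC9A3R1, SLC9A3R2, SLC2A4RG, SLC4A1AP, SLC7A6OS and SLC22A18AS). The symbol rule takes neither the organic anion carriers SLCO nor the SLC35B to SLC35G genes, which are given near the end with other genes outside it.

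RNA was sequenced from MHCC97H cells, a human hepatocellular carcinoma line with a high capacity to metastasise. HNRNPC encodes hnRNP C, which coats nascent RNA in the nucleus at runs of uridine and takes part in splicing. The shHNRNPC group carried a short hairpin RNA against HNRNPC and the shcontrol group carried a control hairpin, with 3 libraries in each, and the comparison asks what the loss of HNRNPC does to gene expression. The labels tell apart 1 cell line and 1 hairpin per group and give no time after knockdown. They also do not say whether the replicates came from separate cultures, so the p-values measure only the spread between these libraries.

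Cells express carriers in sets that fit their needs. Amino acid carriers at the surface feed protein synthesis, and others on the lysosome return or sense amino acids. Zinc is held low in the cytosol by most of the SLC30 carriers, which move it out of the cell or into organelles, and is brought in by the SLC39 carriers. Exchangers of sodium for protons and carriers of bicarbonate set the pH of the cell and its compartments. A change in mRNA is not a measure of transport, and in bulk RNA from a line a change in every cell and a change in the share of expressing cells cannot be told apart.

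Levels are read counts relative to library size (CPM), scaled between libraries, given for the libraries in the order NC_3, NC_3_2, NC_3_3 (shcontrol) and SI_3, SI_3_2, SI_3_3 (shHNRNPC), and as mean ± SD with n = 3 per group. Levels are compared between genes only as CPM per kilobase of the longest coding transcript (RPKM). Fold changes are shHNRNPC over shcontrol with a standard error (SE) on the log2 scale, and a gene is said to rise or fall where edgeR's quasi-likelihood test gave an adjusted p under 0.05 over all 11831 genes tested. Total counts ran from 15563077 to 18328475 per library, and the 128 genes held 0.68% to 0.699% of them. HNRNPC itself was at 852 ± 4.85 CPM in shcontrol and at 62.2 ± 3.79 CPM in shHNRNPC, a log2 fold change of -3.77. No libraries stood apart or were near copies of each other. The liver label is not borne out by defining hepatocyte genes. Of 8 such markers 5 were in the table, all 5 with a mean under 1 CPM in both groups, and ALB, the albumin gene, had 0 counts in 5 of the 6 libraries. The epithelial keratin KRT8 was at 1006 ± 7.10 CPM in shcontrol, while EPCAM was near 0 and all 4 leukocyte genes and all 4 endothelial genes in the table were under 1 CPM in both groups. Of 5 fibroblast genes 3 were under 1 CPM, while COL1A1 was at 15.6 ± 0.684 and 15.8 ± 0.791 CPM and PDGFRB at 4.25 ± 0.936 and 4.12 ± 0.138 CPM.

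Among the 128 genes, 49 rose, 35 fell and 44 did not pass the test. Over all tested genes 29.8% were called higher and 31.5% lower, against 38.3% and 27.3% of these genes. Among tested genes with a mean of at least 20 counts, the shares were 30.4% and 32.9%. The median log2 fold change was 0.043 here and -0.004 over all genes. No test compared these shares or medians. The balance depended on the scaling, since with scaling by library size alone 43 of the 128 genes rose and 42 fell. The values of the 3 shcontrol and 3 shHNRNPC libraries did not overlap for 87 of the 128 genes, beside 63.9% of all tested genes. Among larger changes, 13 genes rose at least 1.5-fold where 4.93% of all genes did, and 17 fell by as much where 9.16% did. Those are 10.2% and 13.3% of the 128. Rises of at least 2-fold numbered 2 (SLC16A6 and SLC15A3; 1.87% of all genes), and falls of at least 2-fold numbered 6 (1.58% of all genes), which are 1.56% and 4.69% of the 128. The authors' deposited table called 38 of the 128 higher and 33 lower, and all 71 were called in the same direction here.

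**Figure D1:**
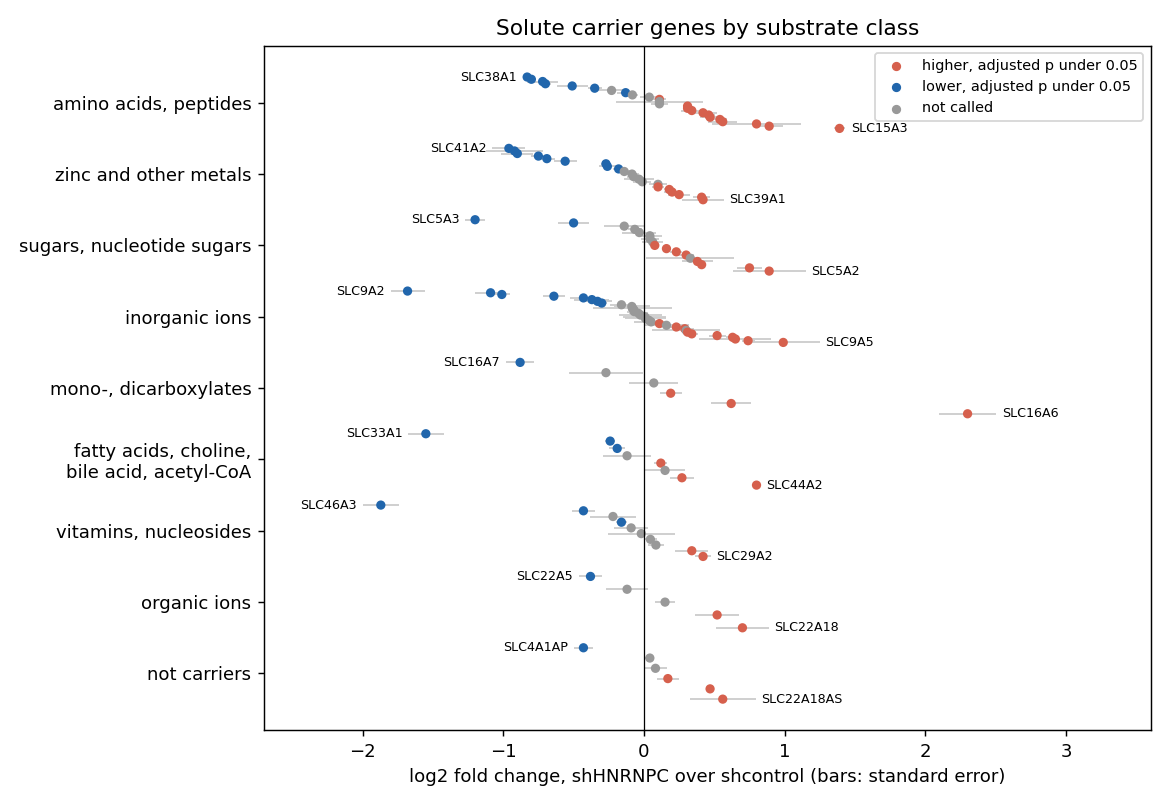
The horizontal axis is the log2 fold change, shHNRNPC over shcontrol, and each point is 1 of the 128 genes with its standard error, arranged by substrate class on the vertical axis. Red marks genes called higher, blue genes called lower and grey genes not called. Each class of carriers holds both red and blue points, from SLC46A3 at -1.87 to SLC16A6 at 2.30.

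The plot of fold changes by substrate class shows that no class moved as a whole. Amino acid and peptide carriers had 12 rises and 7 falls of 24 genes, and sugar and nucleotide sugar carriers 8 rises and 2 falls of 17. Carriers of zinc and other metals had 6 rises and 9 falls of 21. Carriers of inorganic ions, the largest class, had 10 rises and 8 falls of 31. The medians of these 4 classes were 0.11, 0.077, -0.085 and 0.006 on the log2 scale. In the same order the shares higher and lower were 50% and 29.2%, 47.1% and 11.8%, 28.6% and 42.9%, and 32.3% and 25.8%. Of all tested genes, 29.8% were higher and 31.5% lower. No test compared the classes with all genes.

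SLC16A6, a monocarboxylate carrier family member linked to the export of ketone bodies from liver cells, rose most. Its levels were 1.35, 1.58 and 0.914 CPM in shcontrol and 5.78, 7.19 and 5.77 CPM in shHNRNPC. The groups were far apart, and every shHNRNPC library was above 5 CPM while no shcontrol library reached 2 CPM. The fold was 4.91 (log2 2.30, SE 0.205, adjusted p = 7.95e-18), at a low level throughout. SLC15A3, a lysosomal carrier of peptides and histidine, had 58.3, 51.2 and 53.7 CPM in shcontrol and 141, 147 and 141 CPM in shHNRNPC. All 3 shHNRNPC libraries lay well above the highest shcontrol library. It rose 2.63-fold (log2 1.39, SE 0.041, adjusted p = 5.08e-52). SLC15A4, the related lysosomal carrier, was at 30.8 ± 0.759 and 31.6 ± 0.709 CPM and did not pass the test (adjusted p = 0.625).

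SLC44A2, a choline carrier of the plasma membrane and mitochondria, was the most abundant gene among the 12 largest rises, with a mean of 76.1 RPKM. It had 206, 213 and 212 CPM in shcontrol and 374, 362 and 361 CPM in shHNRNPC. The spread within each group was small beside the gap between them. The rise was 1.74-fold (log2 0.80, SE 0.026, adjusted p = 1.82e-48). The other large rises were the sodium/proton exchangers SLC9A5, SLC9A8 and SLC9A3, the glycine carrier SLC6A9, the renal glucose carrier SLC5A2, the proton-driven myo-inositol carrier SLC2A13, the amino acid exchanger SLC7A8, SLC22A18 and SLC26A10. SLC9A5, SLC5A2, SLC7A8 and SLC26A10 had shcontrol means between 0.937 and 1.45 CPM. Of these, SLC7A8 passed the count limit only through its shHNRNPC counts. SLC7A8 lost its call without NC_3, SI_3 or SI_3_2, with adjusted p up to 0.220, and SLC26A10 without NC_3_3, SI_3 or SI_3_3, with adjusted p up to 0.114.

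SLC46A3, a lysosomal carrier known for moving the breakdown products of antibody-drug conjugates to the cytosol, fell most. It had 12.8, 13.7 and 14.4 CPM in shcontrol and 3.89, 3.99 and 3.28 CPM in shHNRNPC. No shHNRNPC library reached 4 CPM, and no shcontrol library was below 12 CPM. It was 3.67-fold lower (log2 -1.87, SE 0.128, adjusted p = 1.45e-24). SLC9A2, a sodium/proton exchanger of epithelia, had 13.1, 16.4 and 15.7 CPM in shcontrol and 4.20, 5.25 and 4.64 CPM in shHNRNPC. Its groups were likewise separate, with a 3.19-fold fall (log2 -1.68, SE 0.121, adjusted p = 4.04e-23).

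SLC33A1 brings acetyl-CoA into the endoplasmic reticulum, where it is used to acetylate proteins and gangliosides. It had 12.2, 12.6 and 12.7 CPM in shcontrol and 3.89, 4.45 and 4.47 CPM in shHNRNPC. The 3 libraries of each group lay close together, and the fall was 2.92-fold (log2 -1.55, SE 0.126, adjusted p = 4.25e-20). SLC5A3, the sodium-driven carrier of myo-inositol used in osmotic adaptation, had 39.4, 38.1 and 41.7 CPM in shcontrol and 16.7, 17.3 and 17.7 CPM in shHNRNPC. These groups did not overlap either, and the gene fell 2.30-fold (log2 -1.2, SE 0.070, adjusted p = 2.65e-29). SLC5A3 overlaps MRPS6 on the same strand, so reads of shared exons could be given to either or to neither. MRPS6 had a log2 fold change of 0.13.

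SLC4A7, a sodium bicarbonate cotransporter that loads the cell with base, went from 14.7 ± 0.414 to 6.90 ± 0.493 CPM (log2 -1.09, SE 0.109, adjusted p = 1.58e-15). SLC26A2, the sulfate carrier that supplies sulfation of proteoglycans, went from 59.0 ± 3.83 to 29.2 ± 1.35 CPM (log2 -1.01, SE 0.057, adjusted p = 4.84e-30). The remaining 6 of the 12 largest falls ran from -0.96 to -0.80 on the log2 scale. They were the magnesium carrier SLC41A2, the zinc carriers SLC30A4 and SLC39A10, the monocarboxylate carrier SLC16A7, the glutamine carrier SLC38A1 and the cationic amino acid carrier SLC7A1. All 12 falls kept their call in each of the 6 fits that left out 1 library and after the correction for GC content and length described near the end. That correction made several of them smaller by over 1.5 times on the log2 scale. SLC16A7 went from -0.88 to -0.36, SLC4A7 from -1.09 to -0.65, SLC39A10 from -0.90 to -0.52, SLC41A2 from -0.96 to -0.57 and SLC38A1 from -0.83 to -0.50. SLC30A4, SLC26A2 and SLC5A3 shrank in the same way, from -0.92 to -0.56, from -1.01 to -0.63 and from -1.20 to -0.76.

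**Figure D2:**
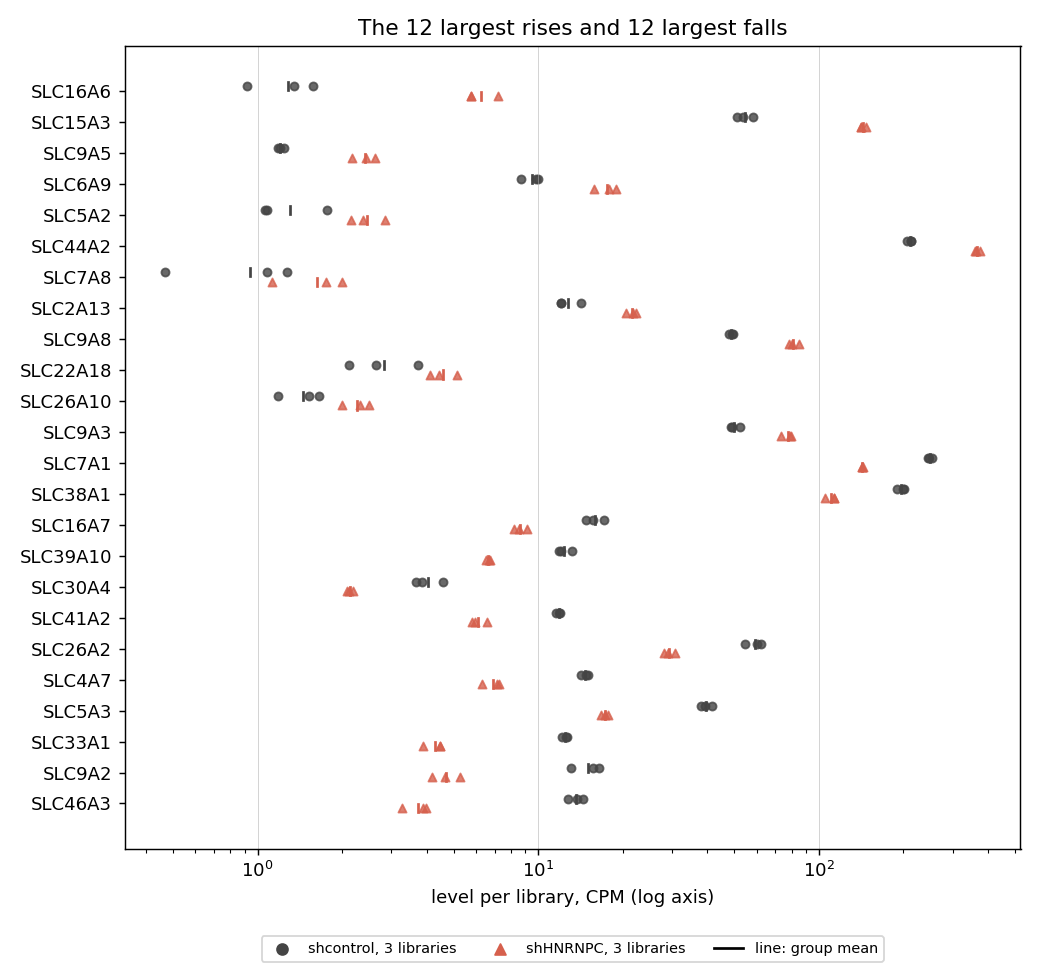
The horizontal axis is the level in CPM on a log axis, and the rows are the 12 largest rises and the 12 largest falls past the test. Circles are the 3 shcontrol libraries, triangles the 3 shHNRNPC libraries and short lines the group means. Circles and triangles are apart for all genes except SLC7A8.

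The plot of the largest changes by library also shows where the precision is lowest. The 5 genes with shcontrol means under 2 CPM (SLC16A6, SLC9A5, SLC5A2, SLC7A8 and SLC26A10) were all rises. SLC7A8 alone had overlapping groups among the 24, with 0.470, 1.27 and 1.08 CPM against 1.76, 2.0 and 1.13 CPM.

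Amino acid carriers split by family member rather than moving together. SLC1A5 encodes the main glutamine exchanger of many tumour cells and was the most abundant of the class, at a mean of 100.4 RPKM. It had 257, 254 and 263 CPM in shcontrol and 321, 312 and 329.5 CPM in shHNRNPC. The lowest shHNRNPC library was above the highest shcontrol library, with a 1.24-fold rise (log2 0.31, SE 0.026, adjusted p = 8.21e-20). SLC1A3, a glutamate and aspartate carrier chosen for mention after its values were seen, rose from 37.7 ± 1.10 to 54.9 ± 0.547 CPM (adjusted p = 1.06e-15). SLC7A1, which takes up arginine and lysine, had 244, 252 and 247 CPM in shcontrol and 142, 144 and 142 CPM in shHNRNPC. The spread within each group was a few CPM, and the fall was 1.74-fold (log2 -0.80, SE 0.029, adjusted p = 4.50e-44).

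The SLC38 family carries glutamine and other neutral amino acids. All 7 of its genes among the 128 passed the test, 3 lower and 4 higher. Over all tested genes 61.3% passed it in either direction. SLC38A1, a glutamine importer of the plasma membrane, had 189, 200.1 and 199 CPM in shcontrol and 113, 113 and 105 CPM in shHNRNPC. Its shHNRNPC libraries were all far below the shcontrol ones (log2 -0.83, SE 0.033, adjusted p = 5.45e-41). SLC38A2, the importer that cells raise when amino acids run short, had 124, 127 and 114 CPM in shcontrol and 75.1, 74.3 and 74.1 CPM in shHNRNPC. It too was lower without overlap (log2 -0.70, SE 0.040, adjusted p = 8.72e-30). SLC38A4, known from liver, fell from 13.8 ± 0.939 to 8.38 ± 1.39 CPM (log2 -0.72, adjusted p = 8.97e-09).

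These 3 genes are neighbours on the minus strand of chromosome 12, at 46187801 to 46268997, 46361111 to 46370789 and 46766016 to 46825997 in the deposited table. That table names no build. Its positions overlapped the gene of the same name in GENCODE 29 on GRCh38 for all 128 genes. The 4 members that rose were SLC38A6, SLC38A7, SLC38A9 and SLC38A10, of which only the first falls under the naming rule. SLC38A9 is the lysosomal arginine sensor that signals to mTORC1, and SLC38A7 exports glutamine from lysosomes. Their levels went from 10.5 ± 0.215 to 14.1 ± 0.821 CPM (log2 0.42, adjusted p = 1.29e-04) and from 57.4 ± 1.68 to 79.1 ± 3.96 CPM (log2 0.46, adjusted p = 8.74e-16). SLC38A6 rose from 9.17 ± 0.771 to 13.5 ± 0.626 CPM (log2 0.56, adjusted p = 1.73e-06). It overlaps TRMT5 on the opposite strand, and TRMT5 had a log2 fold change of -0.45. Whether the counting used strand is not given in the sources used here. SLC38A10 rose from 164 ± 4.80 to 204 ± 6.86 CPM (log2 0.31, adjusted p = 5.36e-16). The 4 rises and 3 falls of the SLC38 family were called in each alternative fit, with the same 4 genes higher.

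**Figure D3:**
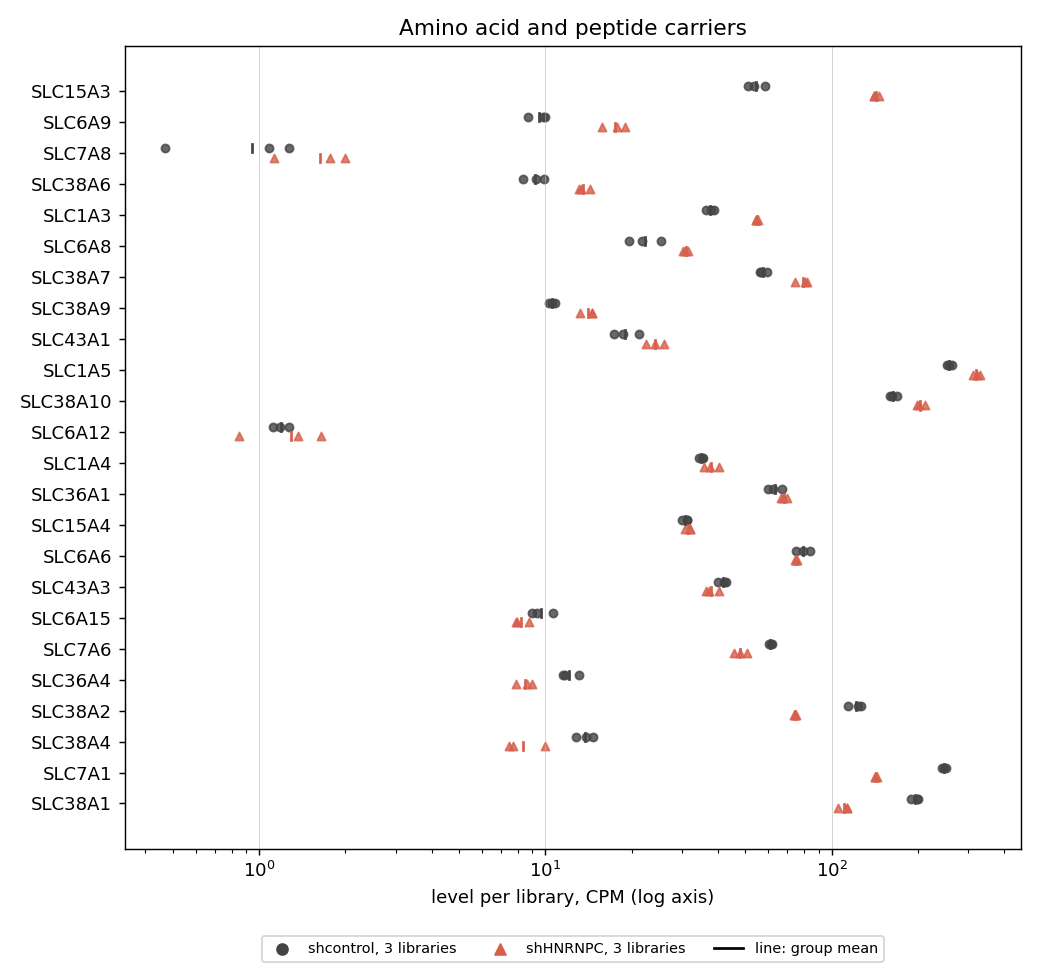
The horizontal axis is the level in CPM on a log axis, with 1 row for each of the 24 amino acid and peptide carriers in the order of their fold change. Circles are shcontrol libraries, triangles shHNRNPC libraries and short lines group means. SLC15A3 is at the top, with triangles at 141 to 147 CPM, and SLC38A1 at the bottom, with triangles at 105 to 113 CPM.

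In the plot of amino acid carriers by library, SLC6A9 stands next to the top. It carries glycine and went from 9.51 ± 0.694 to 17.5 ± 1.66 CPM, a 1.85-fold rise (log2 0.89, SE 0.098, adjusted p = 1.77e-13). SLC6A8 is placed in the class by its family number but carries creatine. It rose from 22.2 ± 2.95 to 30.9 ± 0.679 CPM (log2 0.47, adjusted p = 2.99e-08) and, like the next genes of the paragraph, was chosen after its values were seen. SLC36A4, a lysosomal amino acid carrier, fell by 0.51 on the log2 scale (adjusted p = 3.00e-05). That call was lost after correction for GC content and length (adjusted p = 0.616). SLC43A3, which carries purine nucleobases, fell by 0.13 (adjusted p = 0.0482) with overlapping groups, and lost the call without any of NC_3, NC_3_2, SI_3 or SI_3_3. Of the 12 rises in the class, SLC7A8 and SLC36A1 were lost without at least 1 library.

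Zinc carriers made up most of the metal class. Among the 128 were 6 SLC30 genes, most of which lower cytosolic zinc. Of these, 4 fell and 0 rose by edgeR's test, with 0 higher also at an unadjusted p under 0.05 and by DESeq2. The 9 SLC39 genes among the 128, which raise cytosolic zinc, had 3 rises and 3 falls. Of all tested genes, 29.8% rose and 31.5% fell. SLC30A9, the exception, is known as an exporter of zinc from mitochondria. It had 53.8, 55.3 and 56.5 CPM in shcontrol and 33.4, 31.9 and 33.1 CPM in shHNRNPC. All 3 shHNRNPC libraries lay below all shcontrol ones, with a 1.68-fold fall (log2 -0.75, SE 0.055, adjusted p = 1.28e-22). SLC30A5, which loads zinc into the early secretory pathway and was named after its values were seen, fell from 55.9 ± 3.78 to 34.7 ± 2.26 CPM (log2 -0.69, adjusted p = 8.80e-20).

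SLC30A4, a carrier of zinc into vesicles, had 4.58, 3.86 and 3.66 CPM in shcontrol and 2.19, 2.11 and 2.09 CPM in shHNRNPC, without overlap. It was 1.89-fold lower (log2 -0.92, SE 0.203, adjusted p = 4.94e-05). The fourth fall was SLC30A6, the partner of SLC30A5, at -0.26 on the log2 scale (adjusted p = 6.22e-05). Its call was lost after correction for GC content and length (log2 0.11, adjusted p = 0.0711). After that correction 3 SLC30 genes were lower and 2, SLC30A1 and SLC30A7, were higher, at 0.37 and 0.56 on the log2 scale. Without NC_3_3, SLC30A7 was also called higher.

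SLC39A10, a zinc importer of the plasma membrane, had 12.1, 11.9 and 13.2 CPM in shcontrol and 6.75, 6.67 and 6.50 CPM in shHNRNPC. The groups were well separated, and the fall was 1.87-fold (log2 -0.90, SE 0.114, adjusted p = 3.01e-11). The other SLC39 falls were SLC39A8 (log2 -0.56, adjusted p = 3.52e-09) and SLC39A14 (log2 -0.27, adjusted p = 1.59e-11), both of which also carry manganese and iron. Rises were SLC39A3 (log2 0.41, adjusted p = 1.38e-09), SLC39A1 (log2 0.42, adjusted p = 0.0106) and SLC39A11 (log2 0.25, adjusted p = 0.00424). Only the first of these 3 rises kept its call after the correction and in every fit without 1 library. SLC39A1 lost it without NC_3_3 (adjusted p = 0.0740) and SLC39A11 without SI_3 (adjusted p = 0.0774).

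SLC41A2, a magnesium carrier, had 12, 11.6 and 11.9 CPM in shcontrol and 6.57, 5.82 and 5.94 CPM in shHNRNPC. It fell 1.94-fold with no overlap (log2 -0.96, SE 0.117, adjusted p = 1.05e-11), while its relative SLC41A3, at 56.2 RPKM the most abundant of the metal carriers, rose from 123 ± 0.465 to 139 ± 7.13 CPM (log2 0.18, adjusted p = 5.78e-06). SLC48A1, which moves haem out of the endolysosome, rose by 0.20 on the log2 scale (adjusted p = 0.00203). The calls of SLC41A3 and SLC48A1 were lost after correction for GC content and length, with adjusted p of 0.659 and 0.414.

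**Figure D4:**
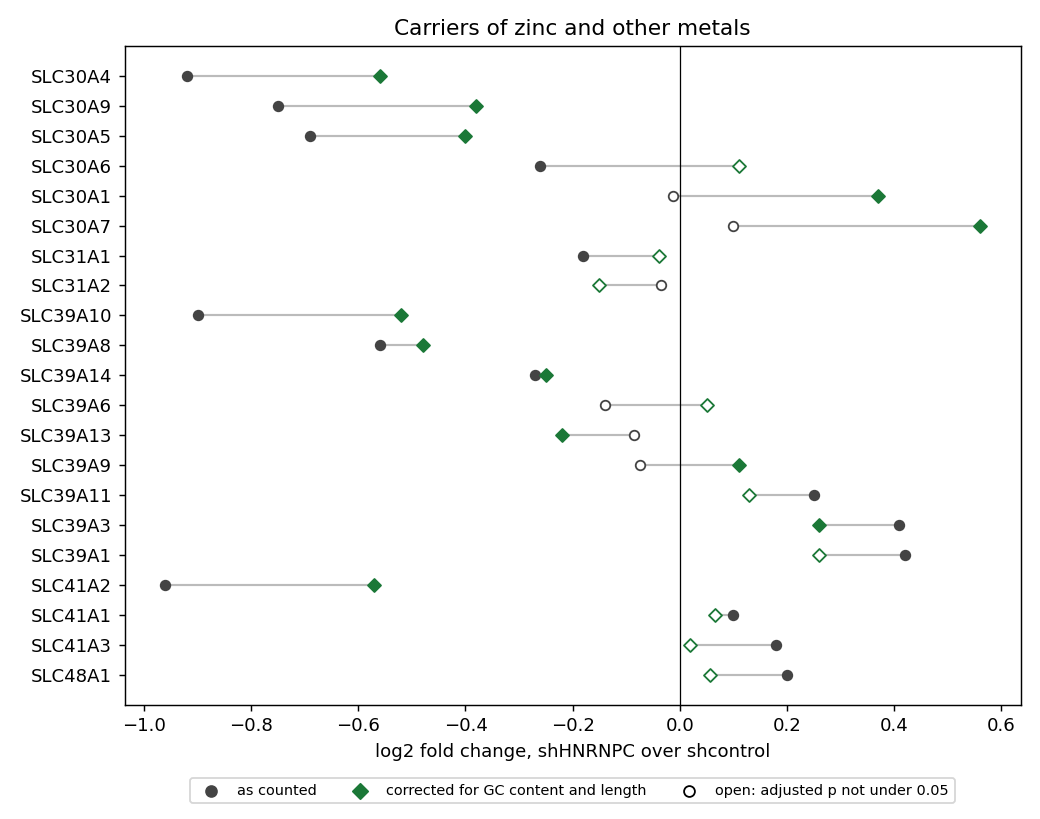
The horizontal axis is the log2 fold change, shHNRNPC over shcontrol, with 1 row for each of the 21 metal carriers grouped by family. Circles are the values as counted and diamonds those corrected for transcript GC content and length, with open symbols where the adjusted p was not under 0.05. The diamonds of SLC30A1 and SLC30A7 lie at 0.37 and 0.56, far to the right of their circles at -0.012 and 0.10.

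The plot of metal carriers with and without the correction also shows the 9 falls as 7 diamonds still called lower and 2 not called, SLC30A6 and SLC31A1. Zinc itself was not measured. Genes linked to the zinc response can be read beside the carriers. The factor MTF1 binds metal response elements when zinc is high and drives the metallothioneins, which bind the metal, and the exporter SLC30A1. All 4 genes of this list that were tested rose, MTF1 itself among them, where 29.8% of all tested genes did. MT2A went from 271 ± 6.34 to 482 ± 10.4 CPM (log2 0.83, SE 0.024, adjusted p = 2.96e-52). MT1E went from 41.9 ± 1.65 to 65.4 ± 4.87 CPM (log2 0.64, adjusted p = 4.72e-20), and MTF1 from 38 ± 1.21 to 46 ± 0.665 CPM (log2 0.28, adjusted p = 8.86e-06). MT1X rose by 0.42 (adjusted p = 6.70e-04), a call lost after the correction (log2 0.14, adjusted p = 0.293). After it MT2A was at 0.56, MT1E at 0.39 and MTF1 at 0.39, still called higher.

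SLC30A1, the exporter named above with MTF1, had 33.4, 33.3 and 31.7 CPM in shcontrol and 35.5, 31.7 and 30.4 CPM in shHNRNPC. Its groups overlapped and it did not pass the test (log2 -0.012, SE 0.064, adjusted p = 0.887), though it was higher after the correction. The 250 bases before the start of SLC30A1, MT2A and MT1X are shown because they carry the metal response element core in different numbers. The sequences are from RefSeq on GRCh38.p14, written 5′ to 3′ on the strand of the gene. Capitals mark each match to TGCACNC or TGCGCNC on either strand.
SLC30A1: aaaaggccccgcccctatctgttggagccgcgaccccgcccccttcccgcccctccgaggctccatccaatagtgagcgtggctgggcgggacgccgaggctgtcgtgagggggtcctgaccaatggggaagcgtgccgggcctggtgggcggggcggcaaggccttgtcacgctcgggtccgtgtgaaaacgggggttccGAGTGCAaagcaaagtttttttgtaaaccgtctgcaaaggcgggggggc
MT2A: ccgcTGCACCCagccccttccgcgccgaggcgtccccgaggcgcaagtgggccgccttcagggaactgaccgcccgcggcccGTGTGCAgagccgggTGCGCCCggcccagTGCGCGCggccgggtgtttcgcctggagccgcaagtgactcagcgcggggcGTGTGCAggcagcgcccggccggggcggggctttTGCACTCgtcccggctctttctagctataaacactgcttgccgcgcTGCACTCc
MT1X: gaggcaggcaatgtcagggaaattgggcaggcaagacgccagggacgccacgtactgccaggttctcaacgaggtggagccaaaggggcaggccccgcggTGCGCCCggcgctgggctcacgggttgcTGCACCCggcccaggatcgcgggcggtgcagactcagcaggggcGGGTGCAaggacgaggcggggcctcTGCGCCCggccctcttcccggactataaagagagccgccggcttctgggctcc
The windows hold 1, 7 and 4 matches. They are set by the RefSeq starts, which differ from the gene limits of the deposited table. There MT2A begins at 56608199 and MT1X at 56682424, before the end of each window, and SLC30A1 ends at 211578742, short of its window. The windows lie on chromosome 1 at 211579162 to 211579411, minus strand, and on chromosome 16 at 56608334 to 56608583 and 56682220 to 56682469, plus strand. A match was found in 24.7% of all 27305 promoters of the table in the same window, in 29.7% of the 101 promoters of the 128 genes it lists, and in 5 of 14 (35.7%) of the SLC30 and SLC39 genes. Those 5 were SLC30A1, SLC30A4, SLC30A6, SLC39A3 and SLC39A6, each with 1 match. A match describes these letters only and is not evidence of binding.

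Carriers of protons, bicarbonate and other inorganic ions held both falls of over 2-fold and rises of over 1.5-fold. The most abundant carrier of all 122 per unit length was SLC4A2, the chloride/bicarbonate exchanger that unloads base, at a mean of 164 RPKM. It had 792, 793 and 806 CPM in shcontrol and 815, 805 and 828 CPM in shHNRNPC. The ranges overlapped and it did not pass the test (log2 0.034, SE 0.020, adjusted p = 0.138). Of the 5 SLC4 genes 2 fell, SLC4A7 and SLC4A3, and 0 rose by edgeR's test, by DESeq2 or at an unadjusted p under 0.05. With upper quartile scaling SLC4A2 passed the test as higher (log2 0.048, adjusted p = 0.0311). The call of SLC4A3 was lost without SI_3_2 (adjusted p = 0.0964).

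In the SLC9 family of sodium/proton exchangers 3 of 9 genes rose and 2 fell. SLC9A8, an exchanger of the Golgi and endosomes, had 48.9, 49.6 and 47.7 CPM in shcontrol and 84.7, 80.4 and 78.3 CPM in shHNRNPC. It rose 1.66-fold with the groups far apart (log2 0.74, SE 0.046, adjusted p = 1.07e-26). SLC9A3, an apical exchanger of kidney and gut, had 52.4, 48.5 and 48.8 CPM in shcontrol and 79.6, 73.5 and 78.7 CPM in shHNRNPC. Again no libraries overlapped, and the rise was 1.55-fold (log2 0.63, SE 0.047, adjusted p = 4.37e-22). SLC9A5 rose 1.99-fold from 1.2 ± 0.0310 to 2.40 ± 0.225 CPM (adjusted p = 6.38e-04). SLC9A7, of the trans-Golgi network, fell by 0.33 on the log2 scale, a call lost after correction for GC content and length (adjusted p = 0.252).

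Among the SLC12 cation chloride cotransporters, which set cell volume, SLC12A2 brings in sodium, potassium and chloride. It had 26.1, 26 and 28.6 CPM in shcontrol and 18.7, 16.5 and 16.9 CPM in shHNRNPC. The groups did not overlap and the fall was 1.55-fold (log2 -0.64, SE 0.077, adjusted p = 6.73e-12). The potassium chloride exporters moved both ways, with SLC12A7 higher (log2 0.52, adjusted p = 2.02e-12) and SLC12A4 lower (log2 -0.30, adjusted p = 1.50e-10). SLC12A4 overlaps LCAT on the same strand. Among the genes with SLC26 symbols, SLC26A2 fell while SLC26A6, SLC26A10 and SLC26A11 rose. None of these rises kept the call after the correction. SLC26A10 is counted as a carrier by its symbol alone. SLC17A5, placed here by family number, exports sialic acid from lysosomes and rose by 0.34 (adjusted p = 5.31e-10). SLC8A1, the sodium/calcium exchanger, fell by 0.43 (adjusted p = 3.78e-05), a call lost after the correction (adjusted p = 0.715). SLC12A4, SLC12A7, SLC17A5, SLC8A1 and SLC9A7 were named after their values were seen.

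Among the 17 sugar and nucleotide sugar carriers, 6 of the 8 rises were smaller than 1.5-fold. SLC2A13 brings myo-inositol in with protons and rose from 12.8 ± 1.19 to 21.5 ± 0.950 CPM. Its libraries were 14.2, 12.1 and 12.1 CPM in shcontrol and 22.3, 20.5 and 21.8 CPM in shHNRNPC, clear of each other (log2 0.75, SE 0.087, adjusted p = 1.13e-12). The 2 carriers of myo-inositol thus lay on opposite sides, with SLC5A3 lower and SLC2A13 higher. Per length SLC5A3 was the higher of the pair in shcontrol, at 3.43 against 1.83 RPKM, and the lower in shHNRNPC, at 1.49 against 3.07 RPKM. SLC5A2, the glucose carrier of the kidney tubule, had 1.06, 1.08 and 1.77 CPM in shcontrol and 2.37, 2.85 and 2.15 CPM in shHNRNPC. The lowest shHNRNPC library was above the highest shcontrol library (log2 0.89, SE 0.259, adjusted p = 0.00184). It had a mean of 32.5 counts and overlaps C16orf58 on the opposite strand, which had 1299 counts and a log2 fold change of 0.23.

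SLC5A6, in the class by family number, carries biotin, pantothenate and lipoate. It had 112, 115 and 109 CPM in shcontrol and 148, 152 and 147 CPM in shHNRNPC, without overlap. The rise was 1.33-fold (log2 0.41, SE 0.034, adjusted p = 2.39e-19). SLC2A10 rose by 0.38 (adjusted p = 0.00188) and lost the call without NC_3_2 (adjusted p = 0.0548). The Golgi carriers of nucleotide sugars were led in level by SLC35A4, at 72.8 RPKM, which rose 1.12-fold with 248, 249 and 249 CPM against 278, 278 and 279 CPM (adjusted p = 5.43e-08). SLC35A3, a carrier of UDP-N-acetylglucosamine, fell from 11.7 ± 0.941 to 8.34 ± 0.455 CPM (log2 -0.50, adjusted p = 5.48e-05). After correction for GC content and length it was at -0.012 and no longer called (adjusted p = 0.936).

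Among carriers of mono- and dicarboxylates, SLC16A7, a high-affinity carrier of pyruvate and lactate, had 15.7, 17.1 and 14.8 CPM in shcontrol and 8.52, 8.21 and 9.11 CPM in shHNRNPC. It fell 1.84-fold without overlap (log2 -0.88, SE 0.102, adjusted p = 1.08e-12), opposite to SLC16A6 and to SLC16A13, which rose from 4.88 ± 0.159 to 7.51 ± 1.51 CPM (log2 0.62, adjusted p = 9.69e-05). SLC13A3, a dicarboxylate carrier at 5.33 RPKM the most abundant of the 6, rose by 0.19 (adjusted p = 0.0256). It lost the call without NC_3_2 or SI_3, by DESeq2, with library size scaling and after the correction.

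Lipid-related carriers had 3 rises and 3 falls of 8 genes (37.5% each), beside 29.8% and 31.5% of all tested genes. SLC27A4, a fatty acid carrier with acyl-CoA synthetase activity, fell from 114 ± 1.04 to 96.4 ± 3.33 CPM (log2 -0.24, adjusted p = 3.84e-08), while SLC27A1 rose from 16.6 ± 0.549 to 20 ± 1.57 CPM (log2 0.27, adjusted p = 0.00317). The call of SLC27A1 was lost after the correction (adjusted p = 0.142). The choline carrier SLC44A1 fell by 0.19 (adjusted p = 0.00271), lost the call without NC_3_3 (adjusted p = 0.0693), and was called higher after the correction (log2 0.22, adjusted p = 3.92e-04). It was the only one of the 84 called genes whose call turned. SLC10A3, an orphan relative of the bile acid carriers, rose by 0.12 (adjusted p = 0.0245). It lost the call without NC_3, NC_3_2, NC_3_3 or SI_3_2, and after the correction its value was -0.075 (adjusted p = 0.149).

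Of the 10 carriers of vitamins, folate, nucleosides and nucleobases, 2 rose and 3 fell, SLC46A3 among the falls. Those are 20% and 30%, beside 29.8% and 31.5% of all tested genes. SLC29A1, the main nucleoside carrier of the plasma membrane, is also the entry route of several nucleoside drugs. It had 87.2, 85.0 and 86.1 CPM in shcontrol and 77.5, 77.7 and 76.1 CPM in shHNRNPC. The fall was small and without overlap (log2 -0.16, SE 0.041, adjusted p = 4.74e-04). SLC29A2, its relative, rose from 43.2 ± 3.65 to 57.7 ± 2.90 CPM (log2 0.42, SE 0.054, adjusted p = 9.12e-11). SLC29A3, a nucleoside carrier of lysosomes, rose by 0.34 (adjusted p = 0.00832), a call lost without NC_3 (adjusted p = 0.0735) and after the correction (adjusted p = 0.187). SLC19A2, which takes up thiamine, fell from 22.8 ± 1.66 to 16.9 ± 0.479 CPM (log2 -0.43, adjusted p = 2.43e-06). The reduced folate carrier SLC19A1, chosen after its values were seen, was at 64.6 ± 2.16 and 66.7 ± 1.95 CPM and did not pass the test (adjusted p = 0.395).

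The 5 carriers of organic ions had 2 rises and 1 fall (40% and 20%), beside 29.8% and 31.5% of all tested genes. SLC22A5, the carnitine carrier that supplies fatty acid oxidation, had 23, 20.2 and 21.0 CPM in shcontrol and 15.4, 15.8 and 18.1 CPM in shHNRNPC. It fell 1.30-fold without overlap (log2 -0.38, SE 0.083, adjusted p = 4.10e-05). Its neighbour SLC22A4, which carries ergothioneine, rose from 3.97 ± 0.626 to 5.73 ± 0.332 CPM (log2 0.52, adjusted p = 0.00282). The pair lies on the plus strand of chromosome 5, at 132369752 to 132395614 and 132294443 to 132344206. SLC22A18 rose from 2.83 ± 0.825 to 4.56 ± 0.531 CPM (log2 0.70, adjusted p = 7.26e-04). Its opposite strand holds SLC22A18AS, which rose by 0.56 (adjusted p = 0.0302) from 1.87 ± 0.142 CPM and lost the call without NC_3, NC_3_3 or SI_3_2. Without knowledge of strand in the counting the reads of this pair cannot be told apart.

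Among the 6 genes that are not carriers, SLC2A4RG, a transcription regulator named for the glucose carrier gene SLC2A4, had the highest level per length of all 128 as a mean over both groups, at 166 RPKM. In shcontrol alone it was at 139.6 RPKM, below SLC4A2 at 162 and SLC9A3R1 at 140.4 RPKM, and in shHNRNPC at 193 RPKM. It had 253, 235 and 237 CPM in shcontrol and 331, 329.9 and 342 CPM in shHNRNPC. The libraries of the groups were clear of each other (log2 0.47, SE 0.026, adjusted p = 8.31e-30). SLC9A3R1, the scaffold that tethers SLC9A3 at the apical membrane, was at 276 ± 24.3 and 293 ± 13.9 CPM, with overlap, and did not pass the test (adjusted p = 0.436). It was called higher without NC_3 and in the fit with a block on the column suffix (log2 0.086, adjusted p = 0.00945). SLC4A1AP, a nuclear protein, fell by 0.43 (adjusted p = 3.97e-08).

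Carriers outside the symbol rule and genes that act with carriers were read from lists. Beside their counts, 29.8% of all tested genes rose and 31.5% fell, so 61.3% passed the test. Of the carriers set aside by name, 6 were tested and all passed, 4 higher and 2 lower. SLC7A11, the cystine importer that feeds glutathione synthesis, fell from 21.3 ± 1.36 to 9.52 ± 0.922 CPM (log2 -1.16, SE 0.093, adjusted p = 3.65e-20). SLC7A5 and SLC3A2, the subunits of the large neutral amino acid exchanger, rose from 1139.8 ± 12.3 to 1333 ± 21.9 CPM and from 576 ± 1.37 to 686 ± 13.9 CPM (adjusted p of 1.34e-19 and 1.87e-19). SLC11A2, the proton-coupled iron carrier, rose from 42.2 ± 1.79 to 63.2 ± 2.63 CPM (log2 0.58, adjusted p = 3.76e-18), and the lactate exporter SLC16A3 from 34.5 ± 0.216 to 44.2 ± 2.15 CPM (log2 0.36, adjusted p = 7.30e-08). SLC2A1, the basal glucose carrier, fell from 307 ± 5.52 to 266 ± 3.33 CPM (log2 -0.21, adjusted p = 1.25e-11).

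Of 35 further carriers (SLCO, SLC35B to SLC35G and MFSD genes) 13 rose and 6 fell, with a median log2 fold change of 0.018. SLCO2B1, an organic anion carrier of liver and gut, rose 2.01-fold from 8.12 ± 0.940 to 16.2 ± 1.16 CPM (adjusted p = 8.96e-15), and MFSD14A rose 1.43-fold (adjusted p = 9.09e-05). MFSD6 and MFSD1 fell by 0.64 and 0.60 on the log2 scale (adjusted p of 4.26e-08 and 2.31e-21). The sodium pump, which maintains the gradient that many carriers use, was listed with carrier chaperones and the WNK kinases that regulate SLC12 cotransporters. Of those 11 genes 3 rose and 5 fell. The pump subunit ATP1B1 fell from 78.9 ± 0.294 to 58.7 ± 1.98 CPM (adjusted p = 1.21e-14) and WNK1 from 165 ± 1.11 to 127 ± 4.52 CPM (adjusted p = 2.44e-18). WNK4 rose 2.44-fold from 1.88 ± 0.503 CPM (adjusted p = 3.86e-08), and FXYD5, a regulator of the pump, 1.23-fold (adjusted p = 7.60e-16).

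The vacuolar proton pump acidifies the lysosomes and endosomes in which several of the carriers above work. Its list, drawn up by symbol, held 21 tested genes, of which 11 rose and 3 fell, with a median log2 fold change of 0.15. Over all tested genes 29.8% rose and 31.5% fell. ATP6V1FNB, among the rises, is a neighbour of the gene ATP6V1F and no subunit, and without it the counts were 10 and 3 of 20. The stalk subunit ATP6V1G1 rose from 110.4 ± 1.09 to 150.2 ± 3.67 CPM (log2 0.44, adjusted p = 2.18e-21), and ATP6V1FNB, the non-subunit, by 0.70 (adjusted p = 0.00743). ATP6V0A4 and ATP6V1A fell by 0.30 and 0.18 (adjusted p of 0.00128 and 3.70e-04), and the call of ATP6V1A was lost after the correction (log2 0.093, adjusted p = 0.0591). With the correction the list of 21 had 9 genes higher and 4 lower and a median of 0.063. In it 3 calls were lost and 1 turned. The corrected shares over all tested genes were 26.1% higher and 30.2% lower. Of 23 ABC transporters, which spend ATP to move their substrates, 6 rose and 5 fell. ABCC3, a basolateral exporter of conjugates, rose 1.67-fold (adjusted p = 1.14e-09), and ABCC11 rose by 1.59 on the log2 scale at a level under 1 CPM (adjusted p = 0.00321). ABCA5 and ABCB10 fell 1.91-fold and 1.72-fold (adjusted p of 9.38e-14 and 4.77e-11).

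Direction moved with transcript GC content and length. Among the 128 genes, those that fell had a median GC content of 41.1% and a median length of 5410 bases in the longest coding transcript. Those that rose had medians of 57.5% and 3130 bases, and those not called 50.9% and 4280 bases. Spearman's rho between log2 fold change and GC content was 0.52 over the 128 genes and 0.43 over all 11831 tested genes. With length it was -0.51 and -0.32, and with the number of exons -0.02 and -0.19. These are correlations across genes of the same 6 libraries, which are not independent replicates.

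**Figure D5:**
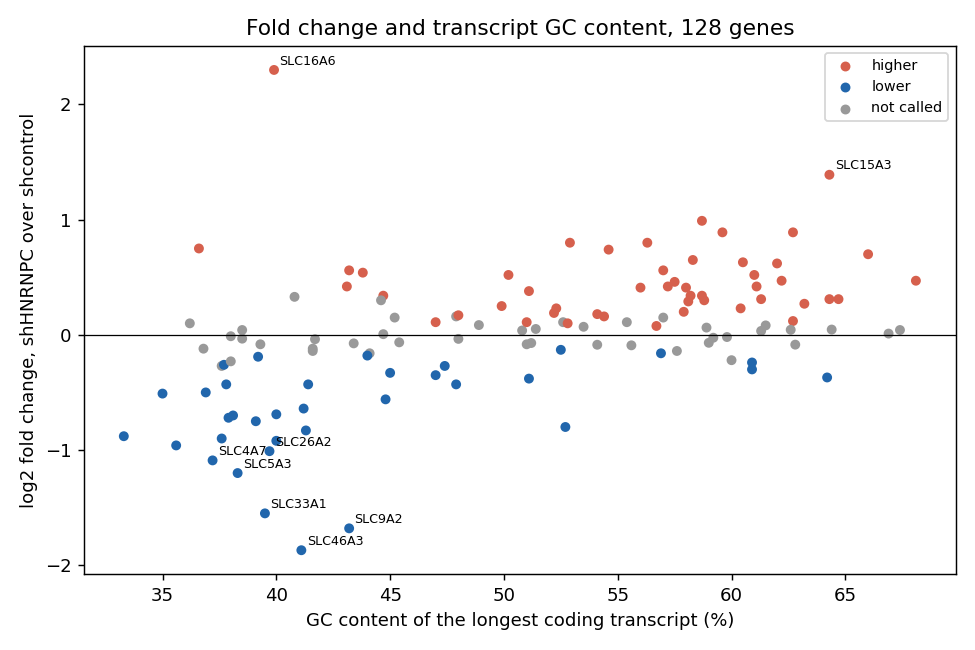
The horizontal axis is the GC content of the longest coding transcript in percent and the vertical axis the log2 fold change, shHNRNPC over shcontrol, with 1 point for each of the 128 genes. Red points were called higher, blue lower and grey not called. The blue points sit mostly at low GC content, around their median of 41.1%, and the red points around 57.5%, while SLC16A6 is high at 39.9%.

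The plot of fold change against GC content shows the exceptions too. SLC16A6 and SLC2A13 rose with GC contents of 39.9% and 36.6%, and SLC7A1 fell with 52.7%. A fit corrected for each library's dependence on GC content and length over all tested genes called 40 of the 128 genes higher and 33 lower. Of all genes it called 26.1% and 30.2%. Over the 128 genes some dependence remained, with rho of 0.16 for GC content and -0.23 for length on the corrected values. Over all tested genes these were -0.02 and 0.00. The median became 0.059, and -0.019 over all genes. Of the 84 calls 61 were kept, 22 were lost and 1 turned, and 11 genes gained a call. Whether GC content or length has a part in the differences was not tested.

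At the limit of the choice, the last genes inside were SLC2A12, SLC6A12 and SLC7A8, with means of 20.8, 21.2 and 22 counts. SLC2A5, SLC27A5 and SLC27A2, with 19.8, 19.2 and 18.7 counts, were the closest outside. SLC2A12 and SLC7A8 had a mean under 20 counts in shcontrol and above it in shHNRNPC, and no gene showed the opposite.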

How the data were processed

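RNA of 1 cell line was sequenced in 2 groups, shcontrol and shHNRNPC, with 3 samples each, using the NEBNext Ultra kit, per the labels' protocols. STAR, HTSeq 0.6.0 and DESeq2 are listed in the submitters' processing notes. For the genome build, the annotation and the strand setting, nothing is given in the sources used here. The counts as the authors deposited them are whole and not normalised. The log2 fold changes and the p-values in the authors' deposited table are their own, and were used only for a count of shared calls. The NC and SI columns were assigned to the groups by name. Their suffixes match no replicate number in the titles, and a column therefore stands for its group only. Another 24 columns of per-library values were not used. The design had named FPKM for levels between genes. Those columns could not be tied to samples, so RPKM was computed from the counts instead.

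Counts were filtered with filterByExpr, scaled by TMM and tested with glmQLFit and glmQLFTest in edgeR 4.0.16 under R 4.3.3, with Benjamini-Hochberg adjustment over 11831 genes and a threshold of 0.05. Each SE was derived from a gene's log2 fold change and F statistic. GC content and length were those of a gene's longest coding transcript in GENCODE 29, which need not be the one these cells express. The correction used splines with 5 degrees of freedom for each, as offsets per library. Other alternatives were DESeq2 1.42.0, other scalings, other filters, leaving out each library and, added after the data were seen, a block on the column suffix. Replicates were compared by chi-square per gene over genes of at least 20 counts, which was 1.55 to 2.31 within groups and 31.0 to 35.7 between them. No pair was counted as 1 library. These values cannot tell whether the replicates came from separate cultures. For the comparison of shHNRNPC with shcontrol, counts of all 15598 genes were simulated with the same dispersion for every gene. Of these genes 200 were changed, and 11832 passed the filter and were tested. The test found 59.1% of the genes changed 1.25-fold, 89.6% at 1.5-fold and 95.3% at 2-fold, and made 13 false calls.

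The members, classes and lists were chosen with earlier results of these data known. Classes follow the family number, and 4 of the 6 genes that are not carriers were set apart after the table was seen. The rule for named genes took the 12 highest and 12 lowest called fold changes, up to 4 called genes in each direction per class, the most abundant of each class, the 5 most abundant overall and 3 on each side of the count limit. Of the lists it took up to 2 called genes in each direction, and all genes of lists of 10 or fewer. Any other gene named was chosen after its values were seen. Genes of the 128 that neither the rule nor such a choice took are counted but not named. Apart from them, 1 gene is counted but not reported by name here.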

Additional observations from a re-analysis of the deposited data

How the results depend on the processing

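The NC and SI columns share suffixes that match no replicate number in the sample titles, and nothing says that they pair libraries. Deviations from the group means correlated at -0.07, 0.01 and -0.04 between libraries of the same suffix, over 11188 genes. A fit with the suffix as replicate block, added after the data were seen, called 49 of the 128 genes higher and 35 lower, gave SLC9A3R1 a call and took it from SLC7A6OS. Under RLE, upper quartile and library size scaling, a filter at a mean of 1 CPM, no filter on low counts, DESeq2, the GC and length correction and the removal of each library, the counts of rises and falls of the 128 genes and of each class stayed within 1.5 times their values, with 1 exception. Rises among carriers of vitamins, folate, nucleosides and nucleobases numbered 1 to 2 when 1 library was left out, with 1 without NC_3. Rises among the 128 genes ran from 42 to 46 and falls from 34 to 36 without 1 library. The median log2 fold change of the 128 genes ran from 0.025 to 0.071 in those fits, with 0.071 without NC_3_3. It was 0.003 with library size scaling, where the median log2 fold change of all tested genes was -0.044. The cause was not tested. Of single genes, SLC10A3 went to -0.075 and SLC44A1 to 0.225 on the log2 scale under the GC and length correction. Of the 56 named members, 4 lost the call by DESeq2 (SLC10A3, SLC13A3, SLC26A10 and SLC7A8) and 9 lost it without changing direction under the correction. Of all 84 called genes, 16 lost the call without at least 1 library, 13 higher and 3 lower, and 68 kept it in all 6 fits.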
